A study of Mus musculus with 3 samples.

Results

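The control library of a NOTCH1 experiment in C2C12 cells, a mouse myoblast line, was described by transcript abundance, from a single column of deposited values headed untreated. It is 1 of 3 libraries in the series, and no library was set against it. Values of rows that carry the same gene symbol were summed, which gave 23298 symbols from 23807 rows. All cells of the series carried the construct that the title writes as hN1∆ECD, read here as human NOTCH1 without its extracellular domain. They grew in DMEM with 20% FBS and 4 mM glutamine, and the study cultured them in 10 uM DAPT, an inhibitor of gamma-secretase, the protease that releases the Notch intracellular domain. DAPT was removed from the cultures of interest, whereas the title of the control reads no treatment. Whether DAPT was still present when the control was collected is not stated in the labels, which name no clone or passage. Polyadenylated RNA was sequenced from 1 culture, so there are no replicates, and no test, SD or p-value accompanies the levels below.

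Myoblasts are the dividing, committed precursors of skeletal muscle. Commitment is set by basic helix-loop-helix factors of the MyoD family, which bind E-boxes as partners of E proteins and are held back in growing cells by Id proteins and by Notch signalling. When serum is withdrawn, C2C12 cells leave the cell cycle, fuse and switch on sarcomere genes, and bone morphogenetic proteins can turn them towards an osteoblast fate instead. In growth medium they are flat, adherent cells that build stress fibres and lay down collagen and basement membrane proteins.

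Levels are given in FPKM, which counts fragments per length of transcript and per depth of the library, with the 95% bounds that the authors deposited for each row. Depth, estimated from the spacing of low values, was about 25400000 fragments. At that depth 3 fragments amount to 0.118 FPKM on a transcript that keeps 1 kb after 200 nt are taken off its length. The bounds cover counting and read assignment within this library only. FPKM lay outside its own bounds in 2255 of 10485 rows above 1 FPKM (21.5%), nearly always above them. The share outside was 23.8% of rows with 1 transcription start and 1.59% of rows with at least 2. The size of the excess moved with length. The median ratio of FPKM to the midpoint of its bounds was 1.65 for transcripts of 300 to 500 nt, 1.25 for 500 to 1000 nt, 1.10 for 1000 to 2000 nt and 1.03 for 2000 to 5000 nt. Many short transcripts, though not all, therefore rank higher by FPKM than by their bounds. No label or file header read here states the setting behind the excess. A pair of genes is called different in level only where the bounds do not overlap. A 0 need not mean an absent transcript. The ribosomal protein genes Rpl30, Rps27 and Rpl26 were listed at 0, while Gm12191, Gm9846 and Gm15772 on the same loci had 2380, 1865 and 1254 FPKM. In all, 17 symbols with a row at 0 shared at least 80% of a locus with a symbol at or above 10 FPKM. All 145 rows on unplaced sequence were at 0. Hmgcs1 and Fdft1 of the sterol pathway were also listed at 0, and the reason was not tested.

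Of all 23298 symbols, 10447 stood at or above 1 FPKM (44.8%), 6213 at or above 10 FPKM and 928 at or above 100 FPKM (3.98%). The 44.8% is the share against which the count of each list below is to be read. Another 9058 symbols were listed at 0. The median of the symbols at or above 1 FPKM was 13.7 FPKM, with quartiles of 5.60 and 34.2 FPKM. The 10 most abundant symbols held 7.73% of the summed FPKM and the 100 most abundant 33.2%, and 294 symbols held 50% of it. Without short RNAs the share at or above 1 FPKM was 46%, and without olfactory and vomeronasal receptor genes as well it was 49.2%, with 4.26% at or above 100 FPKM. Of the 100 most abundant symbols other than short RNAs, 56 encoded cytosolic ribosomal proteins.

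Among symbols other than short RNAs, the first place by FPKM went to S100a4, which encodes a small calcium-binding protein that binds non-muscle myosin. It had 5313 FPKM, with bounds of 3091 and 3179 FPKM, and ranked 7 by the midpoint of its bounds. Lgals1, the gene of the sugar-binding protein galectin-1, had 5196 FPKM and ranked 2 by both measures. Eef1a1, whose product brings aminoacyl-tRNA to the ribosome, had 4376 FPKM, ranked 4 by FPKM and 1 by its bounds (3856 to 3902 FPKM). These genes sat within a narrow band at the top of the curve, and their order depended on which deposited value was read.

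The ferritin chains, which store iron, came next to them. Ftl1 (light chain) had 4772 FPKM and Fth1 (heavy chain) 2696 FPKM, a sum of 7468 FPKM. Cytoplasmic actin made up a similar amount, with 4330 FPKM for Actb and 2906 FPKM for Actg1. Vimentin (Vim), the intermediate filament protein of mesenchymal cells, had 3625 FPKM. The secreted proliferins of the prolactin family were also in this range. Prl2c3 had 3252 FPKM, Prl2c2 2822 FPKM, Prl2c5 199 FPKM and Prl2c1 88.4 FPKM, while Prl2c4 was listed at 0. Prl2c4 and Prl2c3 share their locus, and the family is made of near-identical copies, so the level of each copy is uncertain. The 4 genes above 0 summed to 6361 FPKM.

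Of the 40 most abundant symbols 19 encode cytosolic ribosomal proteins, led by FPKM by Rplp1 (4248 FPKM), Rpl41 (3913 FPKM) and Rps2 (3106 FPKM). Their bounds gave another order, with Rps2 (2448 to 2498 FPKM) above Rplp1 (2353 to 2430 FPKM) and Rpl41 (2093 to 2166 FPKM) below both. Gm12191 (2380 FPKM) and Gm9846 (1865 FPKM) belong beside them, since they lie on the loci of Rpl30 and Rps27, which were listed at 0. The remaining places went to genes of several functions. Myl6, the light chain of non-muscle myosin, had 2621 FPKM, and the calcium-binding S100a11 2432 FPKM. Pfn1, which feeds actin monomers to growing filaments, had 2387 FPKM, and Tmsb10, which holds monomers back, 1848 FPKM. Ppia, a peptidyl-prolyl isomerase, had 2463 FPKM. Tpt1, a growth-related translationally controlled protein, had 2370 FPKM, and the chromatin-associated Ptma 2000 FPKM. Smooth muscle actin, Acta2, closed the group at 1681 FPKM. By the midpoint of the bounds, 30 of these 40 symbols stayed among the 40 most abundant.

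**Figure D1:**
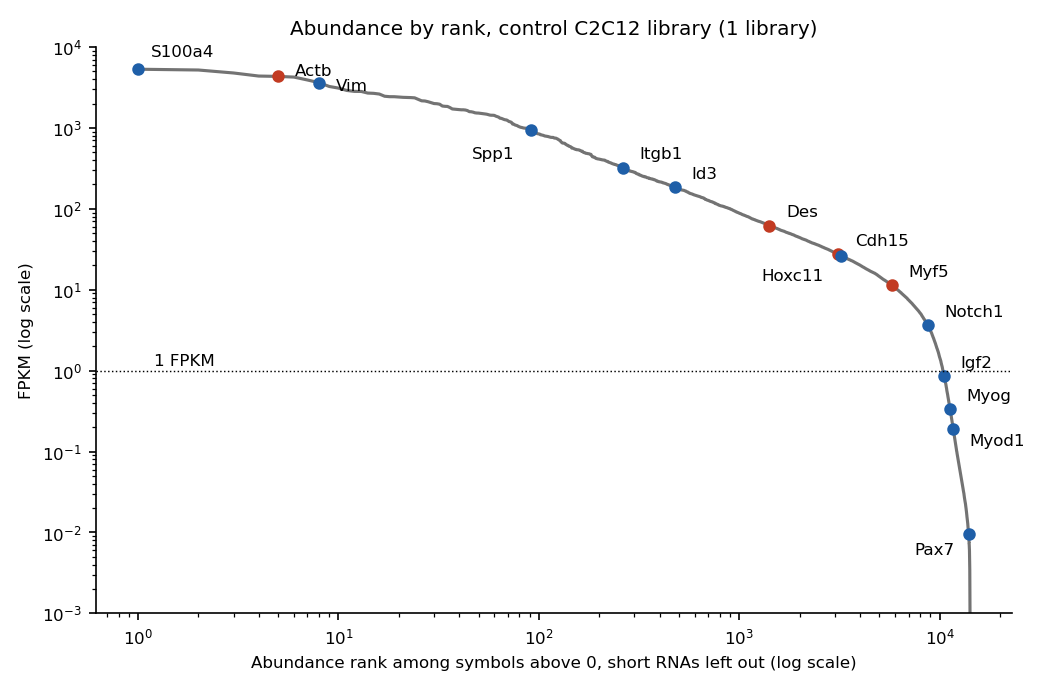
FPKM (vertical, log scale) against abundance rank (horizontal, log scale) for all symbols above 0 other than short RNAs in the control library; red points are the 4 marker genes Actb, Des, Cdh15 and Myf5, blue points are other named genes, and the dotted line is at 1 FPKM. Actb lies among the most abundant genes at 4330 FPKM, Des, Cdh15 and Myf5 lie between 62.2 and 11.4 FPKM, and Myog, Myod1 and Pax7 lie below the line.

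Ribosomal protein and translation factor mRNAs commonly start at a C followed by a pyrimidine run, the feature through which their translation is tied to growth signals. Windows around the starts of very abundant genes are therefore printed, 25 bases on each side of the RefSeq start (GRCm38.p6), on the strand of the gene. Capitals mark unbroken runs of C and T of at least 8 bases.
Rpl41: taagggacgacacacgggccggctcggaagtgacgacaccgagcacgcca
Rps2: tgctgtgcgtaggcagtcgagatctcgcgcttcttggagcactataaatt
Rps28: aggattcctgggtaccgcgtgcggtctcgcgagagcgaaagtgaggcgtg
Rps12: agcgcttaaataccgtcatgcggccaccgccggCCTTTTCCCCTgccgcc
Rps15: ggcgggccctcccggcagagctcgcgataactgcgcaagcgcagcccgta
Rpl35: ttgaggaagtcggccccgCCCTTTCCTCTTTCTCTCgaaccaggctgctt
S100a4: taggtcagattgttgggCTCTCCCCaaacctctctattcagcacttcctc
Ftl1: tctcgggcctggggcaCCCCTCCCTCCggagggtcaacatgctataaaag
Eef1a1: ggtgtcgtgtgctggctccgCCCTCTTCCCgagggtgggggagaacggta
Vim: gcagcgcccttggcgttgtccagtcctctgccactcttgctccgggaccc
Rpl41 lies at chr10:128549144-128549193 (minus strand), Rps2 at chr17:24720038-24720087 (plus), Rps28 at chr17:33824538-33824587 (minus), Rps12 at chr10:23787185-23787234 (minus), Rps15 at chr10:80292406-80292455 (plus) and Rpl35 at chr2:39005107-39005156 (minus). S100a4 lies at chr3:90603745-90603794 (plus), Ftl1 at chr7:45459862-45459911 (minus), Eef1a1 at chr9:78481700-78481749 (minus) and Vim at chr2:13574286-13574335 (plus). A run of at least 8 pyrimidines within 10 bases of the start was present in Rpl35, S100a4, Ftl1 and Eef1a1. The run in Rps12 begins 8 bases after the annotated start and mostly falls outside that window. Over 51 ribosomal protein genes at or above 1 FPKM with a single promoter entry, 16 had such a run (31.4%), against 977 of all 13761 genes with a single entry (7.10%). The count rests on annotated starts, which can be several bases from those used by these cells.

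All 4 marker genes chosen for the line were above 1 FPKM. Actb ranked 5 among symbols other than short RNAs. Des, the muscle intermediate filament gene desmin (chromosome 1, 75356919 to 75364290, mm9), had 62.2 FPKM, with bounds of 54.6 and 60.5 FPKM, and ranked 1415. Cdh15, which encodes the myoblast adhesion protein M-cadherin (chromosome 8, 125372274 to 125391297), had 27.4 FPKM (24.4 to 27.6) and ranked 3115. Myf5, a determination factor of the MyoD family (chromosome 10, 106919964 to 106923190), had 11.4 FPKM (9.55 to 11.9) and ranked 5761. Only Myf5 stood below the median of the symbols at or above 1 FPKM among these 4 genes.

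Myf5 was the only gene of the MyoD family at or above 1 FPKM, of 4 genes. Myod1, the other determination factor (chromosome 7, 53631844 to 53634462), had 0.189 FPKM with bounds of 0.0841 and 0.316 FPKM, about 8 fragments at the estimated depth. Myog, the gene of the differentiation factor myogenin, had 0.337 FPKM (0.158 to 0.501), and Myf6 had 0.187 FPKM. Their bounds overlapped, so these 3 genes could not be ordered among themselves, whereas Myf5 stood 60.1 times above Myod1 with bounds far apart. The satellite cell factors stood lower still, with 0.00958 FPKM for Pax7, and Pax3 was listed at 0. In bulk RNA, fewer cells with a transcript and less of it per cell cannot be told apart.

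Of the 26 determination and differentiation factors listed, 15 stood at or above 1 FPKM (57.7%, against 44.8% of all symbols). The inhibitors led the list. Id3 had 186 FPKM, Id1 124 FPKM and Id2 24.4 FPKM, with the bounds of each apart from those of the next, while Id4 had 0.107 FPKM. The E proteins, which the MyoD family needs as partners and which Id proteins sequester, were present as Tcf3 at 64.7 FPKM, Tcf12 at 25.6 FPKM and Tcf4 at 7.17 FPKM. Among the MEF2 factors, which act with the MyoD family on muscle promoters, Mef2d had 29.5 FPKM and Mef2a 11.7 FPKM, and Mef2c, at 0.00637 FPKM, was near 0. The homeodomain factor Six4, which acts upstream of the MyoD family, had 4.33 FPKM, and the coactivators Eya3, Eya4 and Eya1 had 12.8, 7.62 and 6.40 FPKM. Msc, a repressor of MyoD family targets, had 0.284 FPKM.

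Because Myf5 and Des are the lineage markers whose promoters a reader may want to compare, the stretch from 250 bases before to 50 after the RefSeq start of each (GRCm38.p6) is printed on the strand of the gene. Capitals mark E-box letters CANNTG and TATAAA.
Myf5: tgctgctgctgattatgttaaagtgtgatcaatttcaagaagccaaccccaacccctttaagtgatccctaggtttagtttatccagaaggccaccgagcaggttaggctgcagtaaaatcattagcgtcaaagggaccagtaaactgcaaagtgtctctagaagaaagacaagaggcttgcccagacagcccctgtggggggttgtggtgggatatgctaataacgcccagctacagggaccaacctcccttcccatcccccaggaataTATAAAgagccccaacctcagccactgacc
Des: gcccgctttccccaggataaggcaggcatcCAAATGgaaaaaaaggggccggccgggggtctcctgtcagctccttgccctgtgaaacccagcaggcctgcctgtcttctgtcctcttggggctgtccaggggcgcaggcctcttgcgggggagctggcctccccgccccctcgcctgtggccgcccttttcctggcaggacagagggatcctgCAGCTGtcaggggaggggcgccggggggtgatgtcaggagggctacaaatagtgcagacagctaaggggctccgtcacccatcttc
Myf5 is at chr10:107486085-107486384 (minus strand) and Des at chr1:75360042-75360341 (plus strand). The Des stretch holds 2 matches to CANNTG, which begin 220 and 36 bases before the start. The Myf5 stretch holds 0 matches to CANNTG and 1 to TATAAA, which begins 20 bases after the annotated start. The letters CANNTG, which read the same way on both strands, occurred in 69.1% of 13761 promoters of this length, with a median of 1 match, and TATAAA on either strand in 13.7%. The CANNTG and TATAAA matches shown do not overlap.

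Surface proteins of myoblasts and satellite cells were more widely detected, with 20 of 24 genes at or above 1 FPKM (83.3%, against 44.8% of all symbols) and a list median of 9.38 FPKM. The integrin chain Itgb1 had 323 FPKM and its muscle laminin-binding partner Itga7 50.4 FPKM. The syndecans Sdc4 and Sdc3, which mark satellite cells, had 73.4 and 30.6 FPKM. Vcam1 had 14.9 FPKM, the hepatocyte growth factor receptor Met 8.65 FPKM and the adhesion gene Ncam1 7.51 FPKM. The co-receptors Cdon and Boc, which bind cadherins and promote myogenesis, had 11.3 and 4.14 FPKM. Acetylcholine receptor subunits were present in the growing culture, with 10.1 FPKM for Chrnb1 and 6.33 FPKM for Chrna1, and the kinase gene Musk had 1.32 FPKM. The fusion genes were not: Tmem8c (myomaker) had 0.269 FPKM, and Gm7325 (myomixer) was listed at 0, as were Calcr and Cav3.

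Sarcomere genes formed the opposite picture, with 6 of 40 at or above 1 FPKM (15%, against 44.8% of all symbols) and a list median of 0.0642 FPKM. Skeletal alpha-actin, Acta1, had 33.7 FPKM and cardiac troponin T, Tnnt2, which embryonic and cultured muscle also uses, 16.1 FPKM. The Z-disc gene Ldb3 had 8.01 FPKM, the slow troponin C gene Tnnc1 4.55 FPKM, the fast regulatory light chain Mylpf 2.98 FPKM and the fast troponin C gene Tnnc2 1.36 FPKM. Embryonic myosin, Myh3, had 0.101 FPKM and perinatal myosin, Myh8, 0.0131 FPKM. Titin (Ttn) and nebulin (Neb) had 0.00573 and 0.0228 FPKM. The creatine kinase gene Ckm, the calcium pump gene Atp2a1 and the adult myosins Myh4 and Myh7 were listed at 0. Acta2 stood 49.9 times above Acta1.

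The scaffold of muscle membranes was partly present. Of 20 dystrophin complex and intermediate filament genes, 15 stood at or above 1 FPKM (75%, against 44.8% of all symbols). Lamin A/C (Lmna) had 748 FPKM, nestin (Nes), an intermediate filament of precursor cells, 185 FPKM, and plectin (Plec) 54.0 FPKM. Dystroglycan (Dag1) had 44.6 FPKM and the sarcoglycans Sgce, Sgcb and Sgcd 19.3, 14.9 and 13.3 FPKM. The muscle-restricted sarcoglycan Sgca had 0.713 FPKM. Dystrophin itself, Dmd, had 0.00857 FPKM, whereas its relative utrophin (Utrn) had 11.3 FPKM, with bounds far apart.

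**Figure D2:**
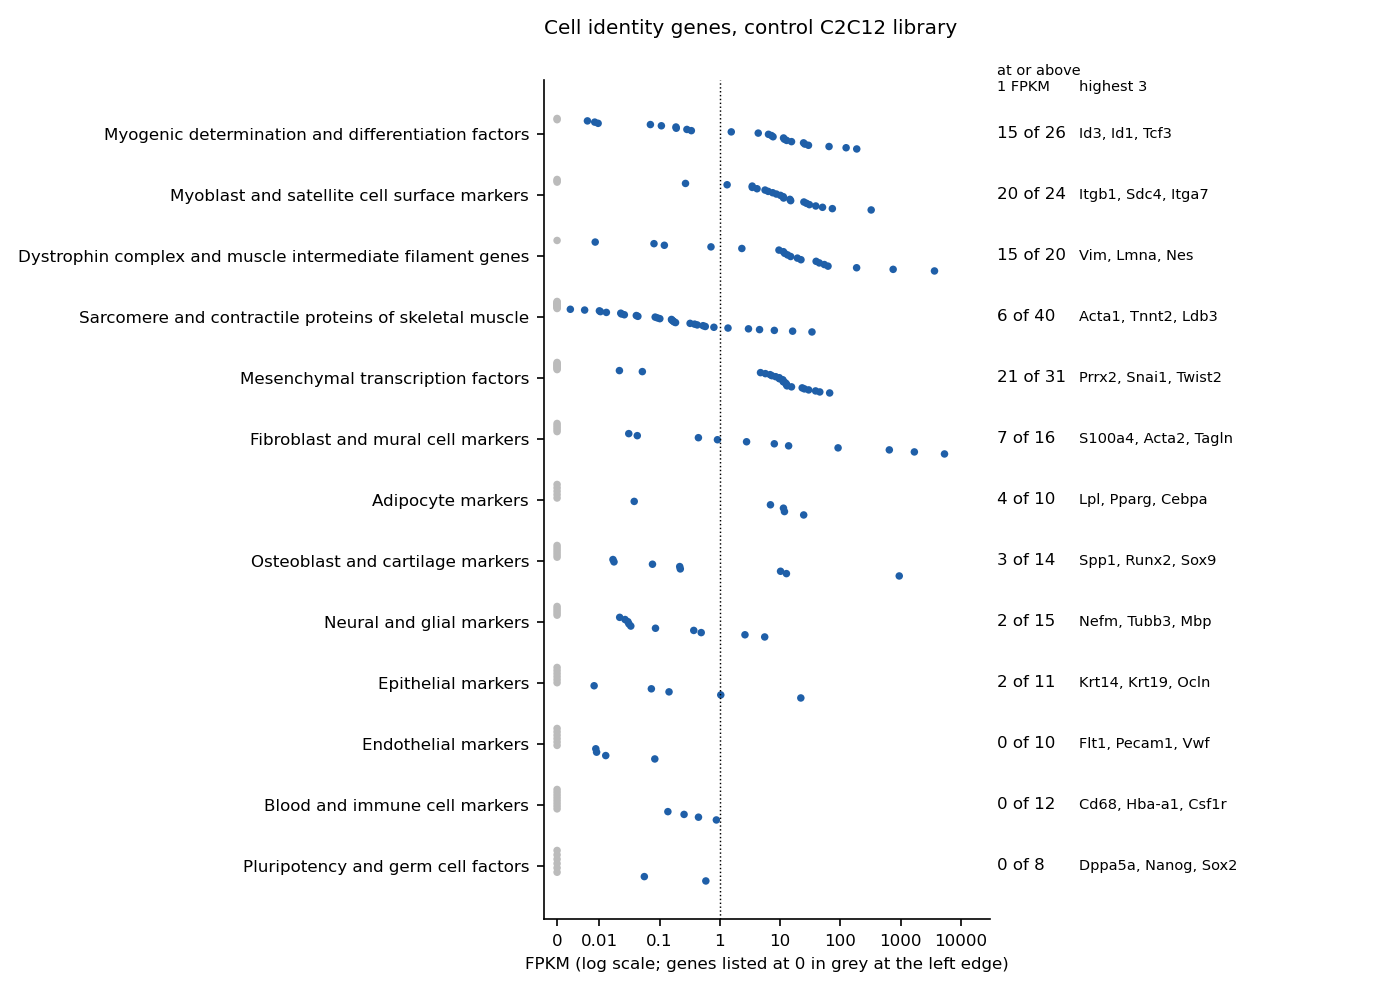
FPKM (horizontal, log scale) of every listed cell identity gene in the control library, 1 row per list and 1 point per gene; grey points at the left edge are listed at 0, the dotted line is at 1 FPKM, and the text at the right gives the count at or above it and the highest 3 genes. Myoblast surface genes lie mostly right of the line (20 of 24), sarcomere genes mostly left of it (6 of 40), and endothelial, blood and pluripotency genes all lie left of it.

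Markers of blood, endothelial, pluripotent, neural and epithelial cells were mostly low. Of 10 endothelial, 12 blood and 8 pluripotency or germ cell genes found in the table, 0 stood at or above 1 FPKM. At 0.5 FPKM the blood and the pluripotency lists had 1 gene each. The highest of these were Cd68, a lysosomal gene of macrophages, at 0.876 FPKM, Dppa5a at 0.586 FPKM and Flt1 at 0.0835 FPKM, and Ptprc, Cdh5, Kdr, Pou5f1 and Sox2 were listed at 0. Of 15 neural and glial genes 2 passed, Nefm at 5.55 FPKM and Tubb3 at 2.61 FPKM. Of 11 epithelial genes 2 passed, the keratins Krt14 at 22.02 FPKM and Krt19 at 1.04 FPKM (1 gene at 2 FPKM), while Cdh1 and Epcam were listed at 0. Whether rare other cells added to these values was not tested.

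Of 16 fibroblast and mural cell genes, 7 were at or above 1 FPKM (43.8%, close to the 44.8% of all symbols). They were S100a4, Acta2, the smooth muscle genes Tagln (646 FPKM) and Cnn1 (13.8 FPKM), the platelet-derived growth factor receptor Pdgfrb (91.3 FPKM), the peptidase gene Anpep (8.001 FPKM) and the proteoglycan gene Cspg4 (2.77 FPKM). Pdgfra, which marks interstitial fibroblasts of muscle, had 0.913 FPKM and Dcn 0.441 FPKM, and Thy1, Lum and Tcf21 were listed at 0. S100a4, Acta2 and Tagln are also transcribed by many cultured mesenchymal cells.

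Of 10 adipocyte genes 4 were at or above 1 FPKM (40%, close to the 44.8% of all symbols). They were Lpl at 24.6 FPKM, the nuclear receptor Pparg at 11.8 FPKM, Cebpa at 11.3 FPKM and Fabp4 at 6.91 FPKM. Among the adipocyte genes below 1 FPKM, Adipoq had 0.0380 FPKM and Plin1, Cidec and Lep were listed at 0. Of 14 osteoblast and cartilage genes 3 passed (21.4%, against 44.8% of all symbols). Spp1, the gene of the secreted phosphoprotein osteopontin, had 944 FPKM and ranked 91, and the lineage factors Runx2 and Sox9 had 12.7 and 10.2 FPKM. Alkaline phosphatase (Alpl) had 0.0169 FPKM, and Sp7 and Ibsp were listed at 0. The factors Pparg, Cebpa, Runx2 and Sox9 stood above 1 FPKM, as did Lpl, Fabp4 and Spp1, while the remaining genes of both lists did not.

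Mesenchymal transcription factors were detected at 21 of 31 (67.7%, against 44.8% of all symbols). The paired homeobox gene Prrx2 had 66.2 FPKM and Prrx1 12.7 FPKM. Snai1, Twist2, Zeb2, Snai2 and Zeb1, repressors associated with the mesenchymal state, had 45.4, 38.7, 15.4, 12.2 and 11.3 FPKM, and Twist1 was listed at 0. The forkhead gene Foxc2 had 29.7 FPKM and Foxc1 7.29 FPKM. Tbx18, Tbx15 and Tbx1 had 9.70, 6.81 and 11.9 FPKM. The somite and muscle precursor genes Lbx1, Meox1, Meox2 and Tcf15 were listed at 0.

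Hox genes record the position of a cell's origin along the body and limb axes. Of 39 such genes 12 stood at or above 1 FPKM (30.8%, against 44.8% of all symbols), all of them in the A and C clusters. Cluster C summed to 86.1 FPKM over 9 genes, and paralogues 9 to 13 made up 77.9 FPKM of that. Cluster A summed to 35.1 FPKM over 11 genes, 27.8 FPKM of it from paralogues 9 to 13. Hoxc11, Hoxc10 and Hoxc13 had 26.5, 25.04 and 19.7 FPKM, followed by Hoxa11 at 11.4 FPKM and Hoxa10 at 10.5 FPKM. Posterior genes of this kind pattern the rear of the trunk and the limbs. Of 10 genes in cluster B, 9 were listed at 0 and Hoxb6 had 0.0350 FPKM, and all 9 genes found in cluster D were listed at 0. The 0 values of clusters B and D come from many rows, and whether they mean absent transcripts was not tested.

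**Figure D3:**
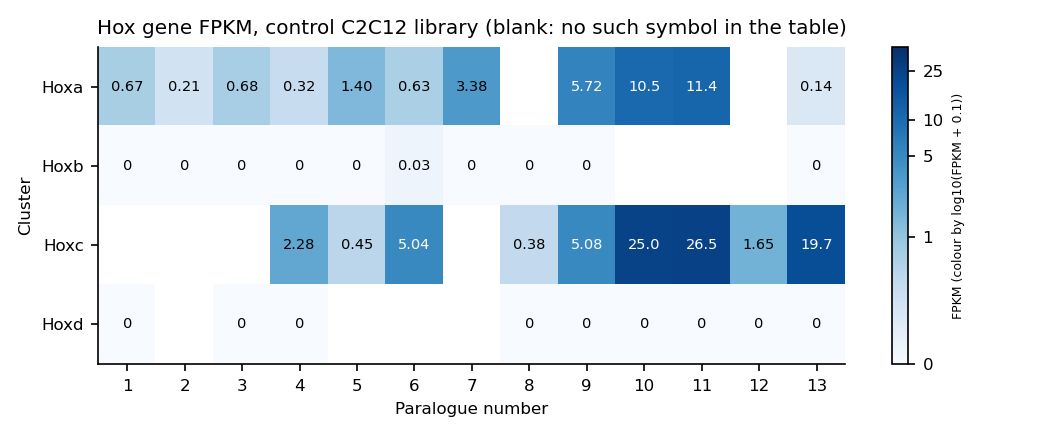
FPKM of each Hox gene in the control library (number in the cell, colour by log10 of FPKM plus 0.1), with clusters A to D in rows and paralogue number in columns; blank cells have no such symbol in the table. The dark cells lie at paralogues 9 to 13 of clusters A and C, and clusters B and D are at or near 0.

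Of 24 imprinted genes, 9 stood at or above 1 FPKM (37.5%, against 44.8% of all symbols). Gnas, the stimulatory G protein gene, had 595 FPKM, and H19, a noncoding RNA of the Igf2 locus that is abundant in developing muscle, had 222 FPKM. Its neighbour Igf2, an autocrine growth factor of differentiating myoblasts, had 0.861 FPKM, so that H19 stood 258 times above it. The maternally expressed Meg3, Rian and Mirg of the Dlk1 domain were all listed at 0, as was Dlk1. Xist, the noncoding RNA of the inactive X chromosome, had 23.6 FPKM (23.2 to 24.4), and the 4 listed Y-linked genes Kdm5d, Uty, Ddx3y and Eif2s3y were listed at 0.

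Most non-muscle cytoskeletal genes were present at high levels. A list of 35 genes held myosins, tropomyosins and crosslinkers together with S100, annexin and galectin genes. Of these 35 genes, 33 were at or above 1 FPKM (94.3%, against 44.8% of all symbols). At or above 100 FPKM stood 30 (against 3.98% of all symbols), among them all the S100, annexin and galectin genes listed. All 4 tropomyosin genes also passed 100 FPKM, with 902 FPKM for Tpm4, 811 FPKM for Tpm1, 483 FPKM for Tpm2 and 282 FPKM for Tpm3. Myh9, the heavy chain of non-muscle myosin IIA, had 407 FPKM, 46.8 times the 8.71 FPKM of Myh10 (myosin IIB), and Myh14 was listed at 0. The filament crosslinker filamin A (Flna) had 437 FPKM, alpha-actinins Actn4 and Actn1 had 234 and 207 FPKM, and zyxin (Zyx), a protein of focal adhesions, had 424 FPKM. Annexins A2 and A1, which bind membranes in a calcium-dependent way, had 845 FPKM for Anxa2 and 544 FPKM for Anxa1. Actins, tubulins, thymosins and small actin binders passed at 24 of 30 (80%), with 4 listed at 0 (Tuba8, Tubb1, Tmsb15a and Tmsb15l). The tubulins were led by Tuba1b at 951 FPKM and Tubb5 at 736 FPKM. Cofilin (Cfl1), which severs actin filaments, had 1527 FPKM, against 34.99 FPKM for the muscle form Cfl2.

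The matrix lists held 6 of 11 fibril collagens at or above 1 FPKM (54.5%, against 44.8% of all symbols). Of these, 4 were above 100 FPKM (against 3.98% of all symbols). Type I collagen led, with 412 FPKM for Col1a2 and 241 FPKM for Col1a1. The trimer is built from a pair of alpha-1 chains and a single alpha-2 chain, whereas the mRNA of the alpha-2 chain stood 1.71 times above that of the alpha-1 chain, with bounds apart (393 to 402 against 229 to 236 FPKM). Col3a1 had 229 FPKM, and the type V chains Col5a2, Col5a1 and Col5a3, which regulate fibril width, had 218, 67.8 and 56.3 FPKM. Cartilage collagens were low, as Col11a1 had 0.0276 FPKM and Col2a1 was listed at 0. Among the other collagens, 6 of 16 passed (37.5%, against 44.8% of all symbols). The type VI chains that link cells of muscle to their surroundings had 131 FPKM (Col6a3), 128 FPKM (Col6a1) and 56.6 FPKM (Col6a2).

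Basement membrane genes were detected at 13 of 23 (56.5%, against 44.8% of all symbols). Nidogen 1 (Nid1), which bridges laminin and collagen IV, had 522 FPKM, the highest value in the list, and the collagen IV chains Col4a1 and Col4a2 had 296 and 214 FPKM. Perlecan (Hspg2) had 61.5 FPKM and Col18a1, the source of endostatin, 88.4 FPKM. Laminins are trimers of an alpha, a beta and a gamma chain. The beta chains Lamb1 and Lamb2 had 44.2 and 29.8 FPKM, the gamma chain Lamc1 37.8 FPKM, and Lama5, at 15.6 FPKM, was the only alpha chain of 5 at or above 1 FPKM. Lama2, the alpha chain of adult muscle laminin, had 0.107 FPKM, and Lama1 and Lama4 were listed at 0. Nid1 stood 13.8 times above Lamc1.

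Secreted matrix glycoproteins were headed by Sparc, a collagen-binding protein, at 1170 FPKM, followed by Spp1 at 944 FPKM and Igfbp7 at 527 FPKM. Fibronectin (Fn1) had 261 FPKM. The matricellular CCN genes Cyr61 and Ctgf had 252 and 213 FPKM, and Thbs1 (thrombospondin 1) 209 FPKM. Of the 34 genes in this list 22 were at or above 1 FPKM (64.7%, against 44.8% of all symbols) and 10 at or above 100 FPKM (against 3.98%). Elastic fibre genes were uneven, with 80.01 FPKM for Efemp2, 13.2 FPKM for Fbn1 and 0.0764 FPKM for elastin itself (Eln), and Fbn2 was listed at 0. Proteoglycan and hyaluronan genes passed at 13 of 24 (54.2%, against 44.8% of all symbols). Glypican 1 (Gpc1) led at 331 FPKM, followed by biglycan (Bgn) at 316 FPKM. The hyaluronan receptor gene Cd44 had 69.3 FPKM, and of the hyaluronan synthases only Has2, at 12.6 FPKM, was above 1 FPKM.

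The enzymes that fold and crosslink collagen were detected at 21 of 23 (91.3%, against 44.8% of all symbols). Serpinh1, the collagen chaperone of the endoplasmic reticulum, had 527 FPKM, P4hb, a subunit of prolyl hydroxylase, 437 FPKM, and Pcolce, which enhances procollagen cleavage, 416 FPKM. Lysyl oxidase (Lox) had 192 FPKM. Matrix proteases and inhibitors passed at 17 of 29 (58.6%). The metalloprotease inhibitor Timp1 had 538 FPKM and its relative Timp2 216 FPKM, whereas the lysosomal proteases Ctsd and Ctsb had 216 and 180 FPKM, the membrane protease Mmp14 172 FPKM, Mmp11 22.3 FPKM and the gelatinase Mmp2 2.15 FPKM. Timp1 stood 3.13 times above Mmp14, and Mmp3, Mmp8 and Mmp10 were listed at 0. Plasminogen activators had 24.0 FPKM (Plau) and 23.7 FPKM (Plat), with overlapping bounds.

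**Figure D4:**
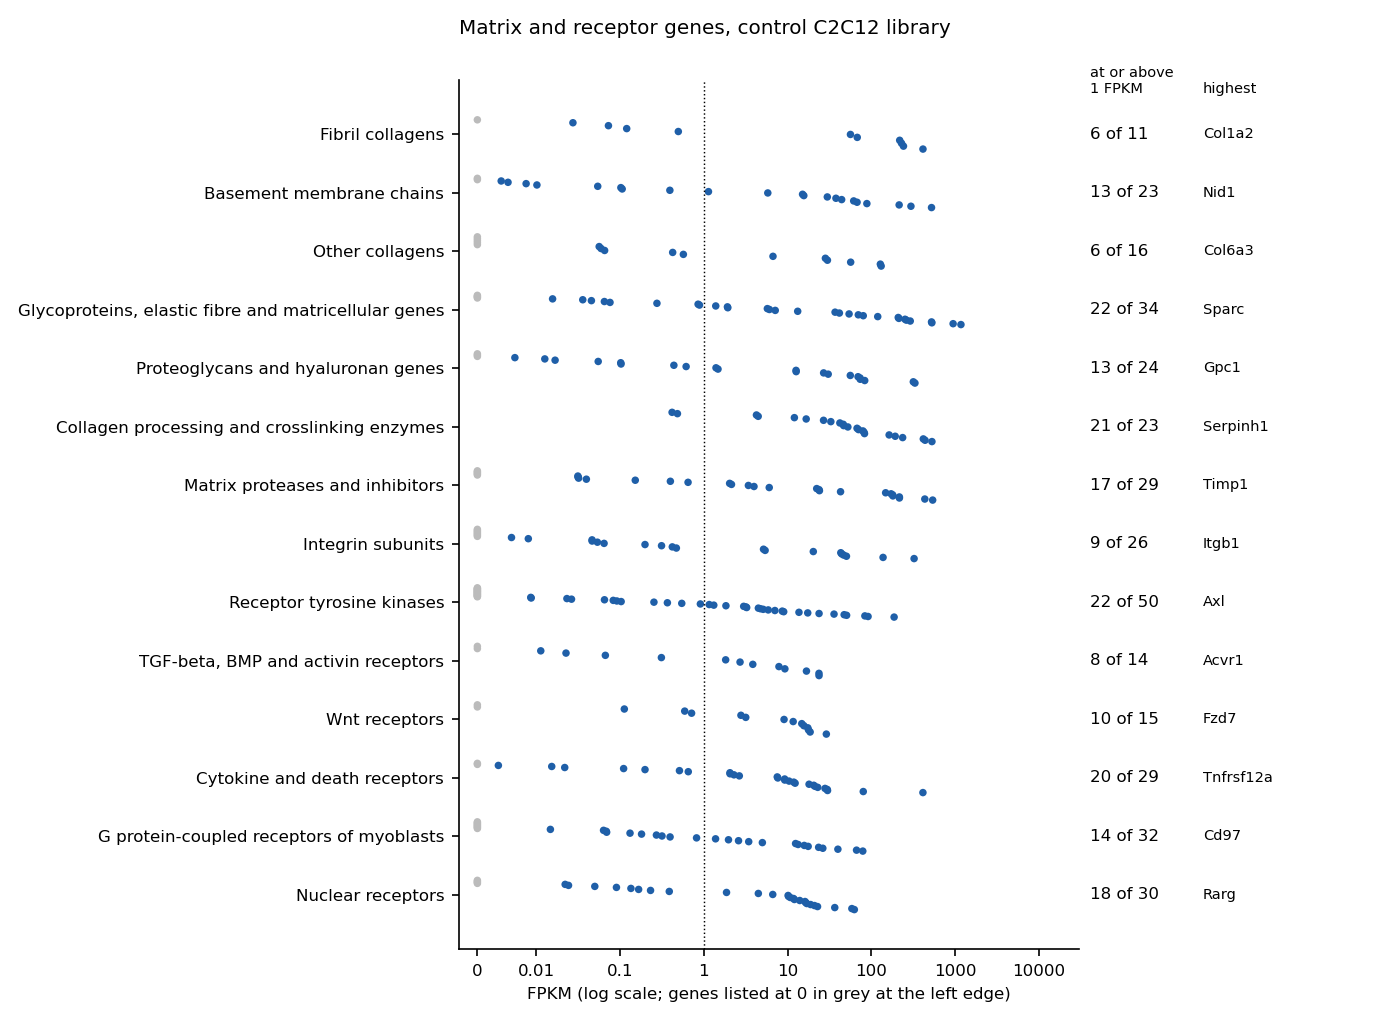
FPKM (horizontal, log scale) of every listed matrix and receptor gene in the control library, 1 row per list and 1 point per gene; grey points at the left edge are listed at 0, the dotted line is at 1 FPKM, and the text at the right gives the count at or above it and the highest gene. Sparc is highest at 1170 FPKM in the matrix lists, and most signalling receptors lie well to its left, the highest being Tnfrsf12a at 412 FPKM.

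Integrins, the heterodimeric matrix receptors, were detected at fewer of their genes, with 9 of 26 subunit genes at or above 1 FPKM (34.6%, against 44.8% of all symbols). Of 18 alpha genes 5 passed, and of 8 beta genes 4 passed. Itgb1, the common beta chain, had 323 FPKM. The 5 alpha genes above 1 FPKM, all of which encode partners of Itgb1, summed to 296 FPKM. They were the fibronectin receptor Itga5 at 138 FPKM, the laminin receptors Itga7, Itga3 and Itga6 at 50.4, 43.2 and 20.3 FPKM, and Itgav at 44.2 FPKM. Itgb5, which pairs with Itgav, had 46.7 FPKM. Receptors for collagen were low, as Itga1 had 0.0540 FPKM and Itga2 and Itga11 were listed at 0, and Itga4 and Itga9 were at or near 0 as well. Cadherin genes passed at 6 of 23 (26.1%, against 44.8% of all symbols). They were led by Cdh2 (N-cadherin) at 50.9 FPKM, above Cdh15 at 27.4 FPKM and Cdh13 at 26.3 FPKM. Cdh15 and Cdh13 had overlapping bounds.

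Receptor tyrosine kinases passed at 22 of 50 (44.0%, close to the 44.8% of all symbols). Axl, the receptor of Gas6, had 187 FPKM, Pdgfrb 91.3 FPKM, the ephrin receptor Epha2 83.7 FPKM and Fgfr1 47.3 FPKM. The discoidin receptors Ddr1 and Ddr2, which bind collagen without integrins, had 35.9 and 23.8 FPKM. The insulin and insulin-like growth factor receptors had 2.999 FPKM (Insr) and 4.49 FPKM (Igf1r), and Egfr had 5.88 FPKM. Fgfr4, the FGF receptor of differentiating muscle, had 0.0265 FPKM, and the neurotrophin receptors Ntrk2 and Ntrk3 were listed at 0.

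Receptors of the TGF-beta superfamily passed at 8 of 14 (57.1%). Acvr1 and Bmpr1a, type I receptors of bone morphogenetic proteins, had 23.8 and 16.8 FPKM, and the type II receptors Tgfbr2 and Bmpr2 had 23.7 and 9.30 FPKM. The myostatin and activin receptor Acvr2b had 0.313 FPKM, under its relative Acvr2a at 3.85 FPKM. Of 15 Wnt receptor genes 10 passed (66.7%, against 44.8% of all symbols). Fzd7, a Wnt receptor of satellite cells, had 29.0 FPKM, and Lgr4, Fzd2 and the co-receptor Lrp5 had 18.6, 17.8 and 17.5 FPKM, with bounds that overlapped. Among Notch receptors, Notch2 had 10.6 FPKM (10.1 to 11.1), Notch3 6.78 FPKM (6.32 to 7.25) and Notch1 3.65 FPKM (3.37 to 3.92), each apart from the next, and Notch4 had 0.0244 FPKM. The files do not separate mouse Notch1 from fragments of the human construct that align to it, so the level of the construct is not known.

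Cytokine and death receptors passed at 20 of 29 (69.0%), led by Tnfrsf12a, the receptor of the cytokine TWEAK, at 412 FPKM, far above Tnfrsf1a at 80.03 FPKM. The shared signal chain of the interleukin-6 family, Il6st, had 28.004 FPKM, and its partners Lifr and Osmr had 12.3 and 7.54 FPKM. Interferon receptors were present, with 22.9 FPKM for Ifngr1 and 18.1 FPKM for Ifnar2. Among 32 G protein-coupled receptors 14 passed (43.8%, close to the 44.8% of all symbols). The adhesion receptor Cd97 had 79.0 FPKM, the thrombin receptor F2r 66.5 FPKM, Smo of the Hedgehog pathway 39.9 FPKM and the lysophosphatidic acid receptor Lpar1 26.4 FPKM. Receptors of sphingosine 1-phosphate had 23.5 FPKM (S1pr3), 15.8 FPKM (S1pr2) and 13.4 FPKM (S1pr1). As a measure of background, 0 of 1097 olfactory receptor genes reached 1 FPKM, the highest being Olfr613 at 0.761 FPKM, and 1078 were listed at 0.

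Nuclear receptors passed at 18 of 30 (60%). The retinoic acid receptor Rarg had 62.6 FPKM and Rara 18.9 FPKM, and Rarb 0.0911 FPKM. The orphan receptor gene Nr2f6 had 58.5 FPKM, Ppard, which responds to fatty acids, 36.6 FPKM, the vitamin D receptor gene Vdr 21.0 FPKM and the glucocorticoid receptor gene Nr3c1 16.4 FPKM. The oestrogen receptor gene Esr1 had 0.389 FPKM, and the progesterone receptor gene Pgr was listed at 0.

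Of 67 growth factor and cytokine genes, 41 stood at or above 1 FPKM (61.2%, against 44.8% of all symbols). Csf1, the macrophage colony-stimulating factor gene, had 558 FPKM and ranked 149, and the monocyte attractants Ccl2 and Ccl7 had 297 and 108 FPKM. Angptl2, an angiopoietin-like gene, had 237 FPKM. The activin subunits Inhba and Inhbb had 66.3 and 50.5 FPKM, Pdgfa 60.4 FPKM and Vegfa 39.8 FPKM. Hgf, which activates satellite cells through Met, had 16.4 FPKM. Insulin-like growth factor was scarce in both forms, with 0.861 FPKM for Igf2 and 0.0468 FPKM for Igf1, and myostatin (Mstn), Tnf and Il1b were listed at 0. Of 34 interleukin genes 2 passed (5.88%, against 44.8% of all symbols), or 4 at 0.5 FPKM and 1 at 2 FPKM.

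Secreted antagonists were uneven in level. Of 18 genes for antagonists of bone morphogenetic proteins and activins or for IGF binding proteins, 9 passed (50%, against 44.8% of all symbols). Igfbp7 had 527 FPKM, the follistatin-like gene Fstl1 414 FPKM, the antagonist gene Grem1 180 FPKM and Igfbp6 148 FPKM, while Igfbp5, which rises when C2C12 cells differentiate, had 0.794 FPKM. The list median was 1.82 FPKM. Follistatin (Fst) had 3.86 FPKM and noggin (Nog) 0.250 FPKM. Wnt ligands and antagonists were mostly low, at 5 of 27 (18.5%), or 3 at 2 FPKM. Wnt10a and Wnt4 had 10.5 and 10.1 FPKM, with overlapping bounds, and Sfrp2 5.21 FPKM.

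Ligands and receptors were then set side by side in 38 pairs, chosen after the values had been seen. Both members stood at or above 1 FPKM in 18 pairs, only the ligand in 16, only the receptor in 4 and neither in 0. Complete pairs included Hgf (16.4 FPKM) with Met (8.65 FPKM), Gas6 (4.25 FPKM) with Axl (187 FPKM), Tnfsf12 (6.05 FPKM) with Tnfrsf12a (412 FPKM) and Jag1 (4.63 FPKM) with Notch2 (10.6 FPKM). Pairs with the ligand alone included receptors best known from macrophages and endothelium. Csf1 stood at 558 FPKM with Csf1r at 0.255 FPKM, and Ccl2 at 297 FPKM with Ccr2 listed at 0. Vegfa had 39.8 FPKM with Kdr listed at 0, and Angpt1 23.6 FPKM with Tek at 0.00877 FPKM. Pairs with the receptor alone were Igf1r with Igf1 and with Igf2, Il6ra with Il6, and Lifr with Lif. The pairs overlap in their members and do not sample all ligands or all receptors of a ligand, so the counts depend on the pairs chosen.

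Glycolytic enzymes were among the most abundant metabolic transcripts. Of 26 glycolytic genes and isoforms 18 were at or above 1 FPKM (69.2%), and together the list held 1.19% of summed FPKM. Pkm (pyruvate kinase) had 1440 FPKM, Gapdh 1360 FPKM, Eno1 (enolase) 839 FPKM, Ldha (lactate dehydrogenase A) 773 FPKM, Aldoa 535 FPKM and Pgk1 515 FPKM. The entry steps stood lower, at 60.2 FPKM for Hk1 and 42.9 FPKM for Pfkl. Ldha stood 259 times above Ldhb, the heart form, at 2.99 FPKM. Hk1 stood 3.56 times above Hk2, the form of insulin-sensitive tissue. Eno1 stood 2.85 times above Eno3, the muscle enolase, which nevertheless had 295 FPKM. A row of Gm5506 on the Eno1 locus was listed at 0, while Gm5506 summed to 790 FPKM over its 2 rows. The level of Eno1 and its ratio to Eno3 are therefore uncertain. Among glucose transporters, Slc2a1, the widely expressed form, had 94.6 FPKM and Slc2a4, the insulin-regulated form of muscle and fat, 0.0149 FPKM. Lactate transport was represented by Slc16a1 at 27.7 FPKM and its chaperone basigin (Bsg) at 481 FPKM, while Slc16a3 had 0.0895 FPKM.

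**Figure D5:**
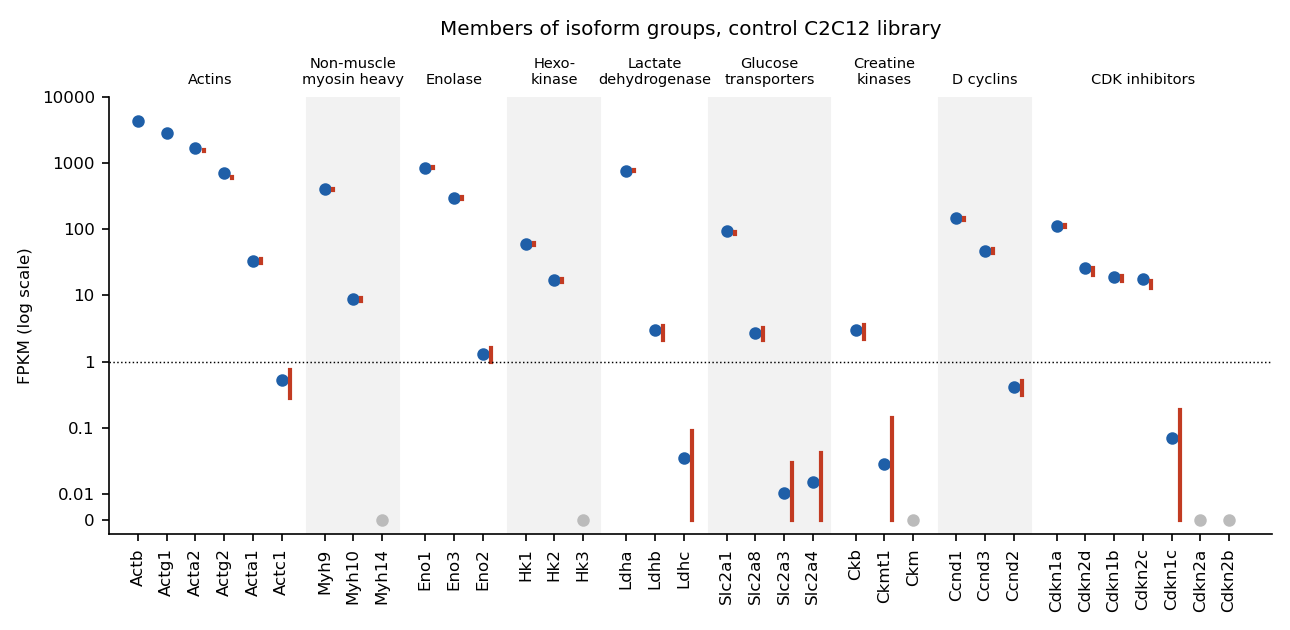
FPKM (vertical, log scale) of the members of 9 groups of related genes in the control library; blue dots are FPKM, red bars to their right the deposited 95% bounds, and grey dots genes listed at 0. In most groups a single gene leads, as Ldha (773 FPKM), Slc2a1 (94.6 FPKM), Myh9 (407 FPKM) and Ccnd1 (149 FPKM) do, and the muscle forms Ckm and Slc2a4 are at or near 0.

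Citrate cycle, complex I and ATP synthase genes were nearly all above 1 FPKM. Of 33 genes for pyruvate control and the citrate cycle, 32 passed 1 FPKM (97.0%), with 350 FPKM for malate dehydrogenase Mdh2 and 167 FPKM for citrate synthase Cs. Complex I passed at 36 of 37 (97.3%) and ATP synthase at 17 of 17 (100%), where Atp5b had 1199 FPKM. Cytochrome c oxidase passed at 12 of 18 (66.7%, against 44.8% of all symbols). The ubiquitous subunit gene Cox6a1 had 609 FPKM, and the muscle form Cox6a2 had 0.0861 FPKM, about 1 fragment. The mitochondrial ADP/ATP carrier Slc25a5 had 663 FPKM and was the highest of 369 solute carrier genes. Of these genes 158 passed (42.8%, close to the 44.8% of all symbols).

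Biosynthetic genes were likewise broad, with 28 of 31 amino acid and one-carbon enzymes (90.3%) and 28 of 30 sterol and fatty acid enzymes (93.3%) at or above 1 FPKM. Ass1, which makes argininosuccinate, had 200 FPKM and Phgdh, the entry enzyme of serine synthesis, 196 FPKM. The polyamine genes Srm and Odc1 had 169 and 115 FPKM, and Amd1, at 0, shares its locus with Amd2 at 111 FPKM. Scd2, a desaturase, had 101 FPKM and Fdps 72.0 FPKM. Genes of fatty acid oxidation and lipid handling passed at 20 of 21 (95.2%), led by the fatty acid carrier Fabp5 at 176 FPKM. The fatty acid transporter Cd36 was listed at 0. The muscle form of carnitine palmitoyltransferase, Cpt1b, had 1.22 FPKM against 20.6 FPKM for Cpt1a. Genes of creatine synthesis and uptake were present, with 40.1 FPKM for Gatm, 16.4 FPKM for Gamt and 48.8 FPKM for the transporter Slc6a8. Its kinases were low, at 2.97 FPKM for Ckb and 0.0282 FPKM for Ckmt1.

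Redox genes passed at 41 of 42 (97.6%), 23 of them at or above 100 FPKM (against 3.98% of all symbols). By FPKM, the ferritins were followed by thioredoxin (Txn1) at 763 FPKM, the glutathione transferase Gsta4 at 642 FPKM, thioredoxin reductase (Txnrd1) at 608 FPKM, superoxide dismutase (Sod1) at 544 FPKM and haem oxygenase (Hmox1) at 515 FPKM. Peroxiredoxin 1 (Prdx1) had 403 FPKM and sulfiredoxin (Srxn1), which reactivates peroxiredoxins, 352 FPKM. The quinone reductase Nqo1 had 186 FPKM. Several of these are targets of the stress factor NRF2, and the list was chosen with their high levels known.

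The culture carried the transcripts of dividing cells. Of 37 cyclin, kinase and replication genes, 33 were at or above 1 FPKM (89.2%). Pcna, the sliding clamp of DNA replication, had 311 FPKM, Cdk4 295 FPKM, the mitotic ubiquitin carrier Ube2c 209 FPKM and Birc5 (survivin) 170 FPKM. Ccnd1 had 149 FPKM, 3.16 times Ccnd3 at 47.1 FPKM, and Ccnd2 had 0.413 FPKM. The CDK inhibitor Cdkn1a, which rises as myoblasts exit the cycle, had 111 FPKM, above Cdkn2d at 26.2 FPKM and Cdkn1b at 19.3 FPKM, while Cdkn1c had 0.0689 FPKM. Cdkn2a and Cdkn2b were both listed at 0.

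Protein synthesis took the largest share of any family measured. Cytosolic ribosomal protein genes passed at 81 of 88 (92.0%, against 44.8% of all symbols), 79 of them at or above 100 FPKM (against 3.98%). The family held 18.0% of the summed FPKM, or 15.3% when the bound midpoints were used. Of the 7 that did not pass, 6 were listed at 0. Translation factors passed at 21 of 22 (95.5%), and after Eef1a1 came Eef2 at 1290 FPKM and Eif5a at 1229 FPKM. The muscle and neuron form of elongation factor 1, Eef1a2, was listed at 0. Chaperones passed at 28 of 30 (93.3%), with 1583 FPKM for Hspa8 and 1511 FPKM for Hsp90ab1, which stood 4.65 times above Hsp90aa1. The small heat shock genes of muscle were uneven, with 104 FPKM for Cryab and 0.0989 FPKM for Hspb7. Mitochondrial ribosomal protein genes passed at 76 of 76 (100%) and proteasome genes at 36 of 40 (90%).

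Short RNAs were set apart because their FPKM could not be read as a level. Of 736 such symbols 64 stood at or above 1 FPKM and they held 3.96% of summed FPKM, yet 57 of the 64 lay above their own upper bound, with a median ratio of 23.8 to the bound midpoint. Snord4a, a small nucleolar RNA, was given as 2567 FPKM with bounds of 0.557 and 6.69 FPKM. Among longer noncoding RNAs the bounds varied. Malat1 and Neat1, nuclear RNAs of speckles and paraspeckles, had 26.6 FPKM (25.2 to 27.3) and 18.2 FPKM (16.3 to 18.98). Small nucleolar RNA host genes passed at 9 of 11, led by Snhg1 at 78.1 FPKM, which lay above its bounds of 41.1 and 51.1 FPKM. Snhg3 and Snhg6 also lay above theirs, at 1.81 and 1.87 times the midpoint.

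Over the 77 lists and families described, 40 had a larger share at or above 1 FPKM than the 44.8% of all symbols, 14 reached 90% and 18 stayed under 20%. Promoter composition was then described by abundance class. The letters GGGCGG, on either strand from 250 bases before to 50 after the RefSeq start (GRCm38.p6), occurred in 71.3% of 558 promoters of genes at or above 100 FPKM, in 71.9% from 10 to 100 FPKM, in 67.2% from 1 to 10 FPKM, in 42.7% above 0 and below 1 FPKM and in 21.4% of 5430 genes listed at 0. Over all 13761 promoters the share was 46.5%. Olfactory and vomeronasal receptor genes, nearly all listed at 0, were not left out of these classes. Median GC content was 61.0% in the top class and 48.3% in genes listed at 0. TATAAA ran differently, at 11.5% of promoters at or above 100 FPKM, 5.89% from 10 to 100 FPKM, 6.14% from 1 to 10 FPKM, 11.9% below 1 FPKM and 22.7% at 0. GC content moved with the share of GGGCGG, and its part in that share was not tested. A match is letters in a window, not a bound site.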

How the data were processed

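The library was polyA-selected RNA of 1 culture, per the labels' protocols. The authors deposited FPKM with lower and upper bounds, a status and a locus per row. TopHat, Cufflinks, FastQC and the mouse build mm9 were named per the submitters' processing notes (versions, settings, strand and annotation: not given in the sources used here). A gene's value depends on how overlapping models share fragments. The series table equalled the library's own table in all 23807 rows, and its 2 other per-sample columns were not used. Locus starts are printed with 1 added. The 320 rows with low-data status were kept. Depth was fitted to 714 low values, 67.6% of which lay within 0.15 of a whole fragment (evenly spread values give 30%), with 200 nt taken off each length. The same values gave the fit and the check, so no count model was used.

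Symbols were ranked, and 46 lists and 31 families were counted at or above 1 FPKM with Python 3.11.15, pandas 2.3.3, numpy 2.4.6 and matplotlib 3.10.9, tested on simulated data. The 40 most abundant symbols and members of the lists could be named, and genes outside both were named after their values had been seen. Members and lists were chosen with earlier results of these data known, and 38 genes stand in more than 1 list. RefSeq promoters (GRCm38.p6) matched 16338 of 22562 symbols other than short RNAs, 13761 with a single entry. Spi1 of the blood list was not found in the table. Alternatives were other thresholds, a TPM scale, the highest row of each symbol, rows of status OK alone, the bounds in place of FPKM and leaving out short RNAs.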

Additional observations from a re-analysis of the deposited data

How the results depend on the processing

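No paired analysis was possible because the series has 1 library per group and only the control was used. The count of symbols at or above 1 FPKM, 10447, stayed between 9681 (threshold of 2 FPKM) and 11031 (0.5 FPKM) under all 7 alternatives run. The share of the 10 most abundant symbols, 7.73%, was 7.61% without short RNAs, 7.37% with the highest row per symbol, 7.82% with only rows of status OK, 6.82% by upper bounds and 6.77% by bound midpoints, the last an alternative chosen after seeing the data. The share of the 100 most abundant, 33.2%, was 32.9%, 32.6% and 33.3% under the first 3 of these and 29.6% by midpoints. The median of the symbols at or above 1 FPKM, 13.7 FPKM, was 7.28 FPKM over all symbols above 0, 12.5 FPKM from 0.5 FPKM, 15.7 FPKM from 2 FPKM and 13.1 FPKM by midpoints. Of 77 list and family counts, 5 moved by over 1.5 times both on a TPM scale and at 0.5 FPKM (blood, pluripotency, olfactory and vomeronasal receptor genes, 1 against 0 each, and interleukins, 4 against 2), 5 at 2 FPKM (epithelial 1 against 2, Wnt ligands and antagonists 3 against 5, keratins 3 against 6, cytochrome P450 genes 5 against 8, interleukins 1 against 2), 1 by midpoints (microRNA genes, 43 against 21) and 0 with the highest row per symbol. A single culture limits all levels to that culture, and genes near 1 FPKM and transcripts under 500 nt are the least certain.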
